A study of Homo sapiens with 4 samples.

Results

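The distal long arm of human chromosome 8 (distal 8q) was examined in MDA-MB-468, an established breast cancer line of the triple-negative kind. Members were the genes that start on chromosome 8 beyond 100 Mb (hg38, GENCODE release 29) and averaged 1 TPM or more across the libraries. NADH dehydrogenase, ATP synthase and ribosomal protein genes and 11 further genes were left out by name. TPM corrects a gene's reads for its length and for the size of the library. The rule gave 170 members of the 14458 genes tested, 139 of them protein-coding and 31 noncoding. The table held 327 genes of the stretch, of which 184 reached 1 TPM, 143 did not, and 14 that did were left out by name. The stretch was singled out because its genes stood lower in SASH1-depleted cells, so every shSASH1 against shControl value of a member describes that choice and is given without a p-value. Members were all genes that passed a minimum level, not all genes of the region.

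Libraries labelled shSASH1 came from cells carrying a lentivirus-delivered hairpin RNA that targets SASH1, the gene of a signalling scaffold protein. Libraries labelled shControl came from cells infected with the pGIPZ control lentivirus. Both kinds of cell were selected with puromycin as stable clones, and each group had 2 libraries. Neither the number of clones and hairpins nor the separateness of the cultures is stated in the labels, so tests reflect how far these libraries differ from each other, which could be technical variation alone.

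Distal 8q is among the chromosome segments most often gained in breast cancers, and the MYC oncogene lies in it. Neighbouring genes in such a segment share little in function: they encode translation factors, cohesin, polymerase subunits, ubiquitin ligases, junction and cytoskeletal proteins, metabolic enzymes and a cluster of zinc finger proteins near the telomere. DNA copies were not measured here.

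SASH1 averaged 3.83 ± 0.257 TPM in the shSASH1 libraries and 14.0 ± 1.38 TPM in the shControl libraries (SD, n = 2 each). Its log2 change was -1.63 ± 0.13 (SE; limma adjusted p = 0.00391). Read numbers rebuilt from TPM were 24360914 and 19534373 in the shSASH1 libraries and 20783000 and 24193468 in the shControl libraries. Across genes, which are not independent replicates, the Pearson correlation was 0.975 between the shSASH1 libraries, 0.988 between the shControl libraries and 0.924 to 0.942 between groups. The 8 epithelial and EGFR markers lay between 48.2 and 2203 TPM in every library. Of the receptors the line lacks, PGR was at most 0.0248 TPM and ESR1 was at 2.29 to 3.64 TPM. Of 8 markers of immune, endothelial and fibroblast cells, 6 were under 0.2 TPM in all libraries, the exceptions being PECAM1 and COL1A1. The summed level of these 8 markers was 9.99 and 12.5 TPM in shSASH1 and 9.58 and 8.54 TPM in shControl, and their part in the results below was not tested.

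Most members had lower values in SASH1-depleted cells, by amounts that varied widely, from -2.32 to 1.16 on the log2 scale among coding members. With noncoding members the range was -3.39 to 1.22, and both of these ends were microRNA hairpin rows (MIR661 and MIR1207). MIR1207 was at 4.39 TPM in shSASH1 replicate 2 and at 0 in every other library. Over the 170 members the median log2 change, on the log2(TPM + 1) scale, was -0.37, with quartiles of -0.67 and -0.14. The median over all genes tested was 0.06. In untransformed TPM the median ratio of shSASH1 to shControl was 0.757 over the 161 members without a 0, against 1.05 over all genes tested without a 0. A log2 change below 0 was found in 140 of the 170 members. Among the 139 coding members, 108 lay between -1 and 0, 9 at -1 or less and 22 above 0. The interquartile range was 0.53 log2 units in the members and 0.62 over all genes.

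The lower level was seen in both shSASH1 libraries. The median difference of the members was -0.43 for shSASH1 replicate 1 minus shControl replicate 1, -0.41 for replicate 1 minus shControl replicate 2, -0.35 for shSASH1 replicate 2 minus shControl replicate 1 and -0.32 for replicate 2 minus shControl replicate 2. The same 4 differences over all genes tested were 0.02, 0.04, 0.08 and 0.09. Summed over the members, TPM came to 7321 and 7429 in the shSASH1 libraries, against 10050 and 10019 in the shControl libraries. The sums of the groups did not overlap, but neither did those over all genes tested. These were 920569 and 909012 TPM in shSASH1 and 922980 and 925105 TPM in shControl. PABPC1 alone gave 1766 and 1825 TPM of the members' sums in shSASH1 and 2401 and 2373 TPM in shControl. Nothing is read from the sums, since the stretch was chosen on this contrast.

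**Figure D1:**
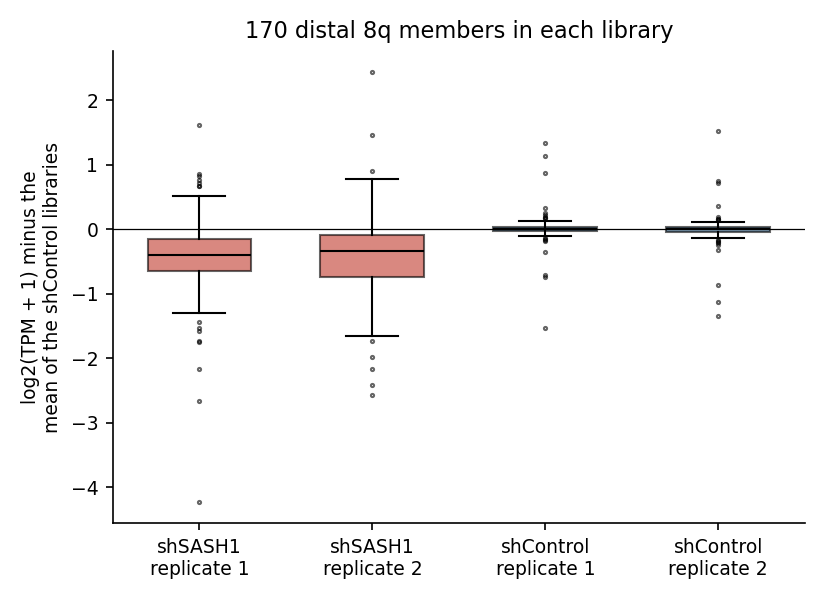
Box plots of log2(TPM + 1) minus the mean of the 2 shControl libraries for the 170 members, 1 box per library (line, median; box, quartiles; whiskers, up to 1.5 times the box length; points, members beyond them). Both shSASH1 boxes lie mostly below 0. The shControl boxes lie around 0 and are narrow in part because their own mean is the one subtracted.

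A call means a limma adjusted p under 0.05 over all 14458 genes. Of the members, 72 were called lower (42.4%), against 13.3% of all genes tested, and 1 was called higher (0.588%), against 18.8% of all genes. The values in the 2 shSASH1 libraries lay below both shControl values in 123 members (72.4%, against 32.3% of all genes) and above both in 24 (14.1%, against 41.3% of all genes), and the groups overlapped in 23. With a log2 change of at least 1 in size as well, 16 of the 170 members were called lower and 1 higher. Of all 14458 genes tested, 554 (3.83%) were called lower and 734 (5.08%) higher at that size. Because the stretch was chosen on this contrast, nothing is read from these shares. The calls rest on the spread between replicates. Without shControl replicate 1 or without shControl replicate 2 limma called 0 members and 0 genes in all, with 58 and 60 members lower and 1 and 0 higher at an unadjusted p under 0.05. Without shSASH1 replicate 1 it called 83 members lower and 14 higher, and without shSASH1 replicate 2 it called 94 lower and 8 higher. The median log2 change stayed between -0.39 and -0.34 in these 4 fits.

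**Figure D2:**
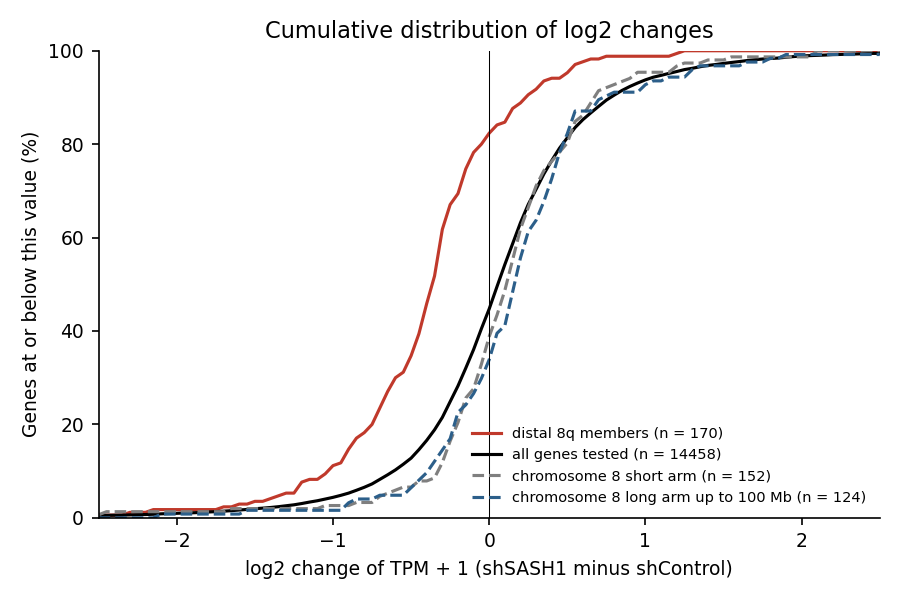
Cumulative share of genes (vertical axis, percent) at or below a log2 change of TPM + 1 (horizontal axis, shSASH1 minus shControl) for the 170 members, all 14458 genes tested, the short arm and the long arm up to 100 Mb. The curve of the members lies left of the others over most of its range, and 82.4% of members are below 0 against 44.7% of all genes.

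Taken whole, both other stretches of chromosome 8 had medians above 0. The 152 tested genes of the short arm had a median log2 change of 0.12, with 9 called lower (5.92%) and 32 higher (21.1%). The 124 tested genes of the long arm up to 100 Mb had a median of 0.16, with 14 called lower (11.3%) and 24 higher (19.4%). Over all genes tested these shares were 13.3% and 18.8%. In bins of 5 Mb the median was 0.16 at 90 to 95 Mb (21 genes), -0.16 at 95 to 100 Mb (20 genes) and -0.36 at 100 to 105 Mb (26 genes). The bin just before the boundary that the rule set was thus already below 0. Medians below 0 were also found in 3 thin bins farther off, at 0 to 5 Mb (-0.25, 6 genes), 10 to 15 Mb (-0.29, 8 genes) and 75 to 80 Mb (-0.17, 4 genes). Of the 5 tested genes just before it, COX6C (-0.91), VPS13B (-0.41) and OSR2 (-0.48) were called lower, and STK3 (0.39) and VPS13B-DT (0.35) were called higher. Just beyond it came FBXO43 (-0.42), POLR2K (-0.29) and SPAG1 (-0.33). No test of this difference between stretches was made, since the stretch was chosen for it.

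Other stretches of the genome were shifted too. Among 152 windows of 20 Mb that held 20 or more tested genes, the 3 windows of distal 8q stood at ranks 5, 9 and 11 from the lowest median, at -0.42, -0.33 and -0.32. The lowest was chromosome X from 40 to 60 Mb, at -0.88. The stretch of chromosome 6 that holds SASH1 had a median of -0.34 over 94 genes. Chromosome 9 from 20 to 40 Mb had the highest, 1.10 over 97 genes.

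Along distal 8q the medians differed between sub-intervals. From 100 to 110 Mb the 33 members had a median of -0.39, and 15 were called lower. From 110 to 120 Mb the 17 members had a median of -0.33, with 6 called lower. From 120 to 130 Mb, where MYC lies, the 34 members had a median of -0.30, with 8 called lower and 1 higher. From 130 to 140 Mb there were 8 members, a thin set, with a median of -0.55 and 3 called lower, and the median was -0.21 without shControl replicate 2. From 140 Mb to the chromosome end the 78 members had a median of -0.43, with 40 called lower. All 5 medians were below that of all genes tested. Over all genes tested 13.3% were called lower and 18.8% higher. Nothing is read from the counts of calls, since the stretch was chosen on this contrast.

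The last sub-interval was not even. The 54 members up to DGAT1 had a median log2 change of -0.65, a median ratio of 0.621, and 37 calls lower. The 24 members from SLC52A2 (start 144354135) to C8orf33, the last tested gene of the chromosome, had a median of -0.12, a median ratio of 0.916 and 3 calls lower: VPS28, RECQL4 and the pseudogene ZNF252P. VPS28 (-0.37) was at -0.22 and not called after the length and GC correction. Calls lower made up 68.5% of the first set and 12.5% of the second, against 13.3% of all genes tested. This division was chosen after the values were seen and was not tested. The difference was present in each pair of libraries: the medians of the first set ran from -0.68 to -0.64 and those of the second from -0.18 to -0.09. GC content was alike, with a median of 63.0% in the first set and 63.4% in the second. After the length and GC correction the medians were -0.52 and -0.05.

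**Figure D3:**
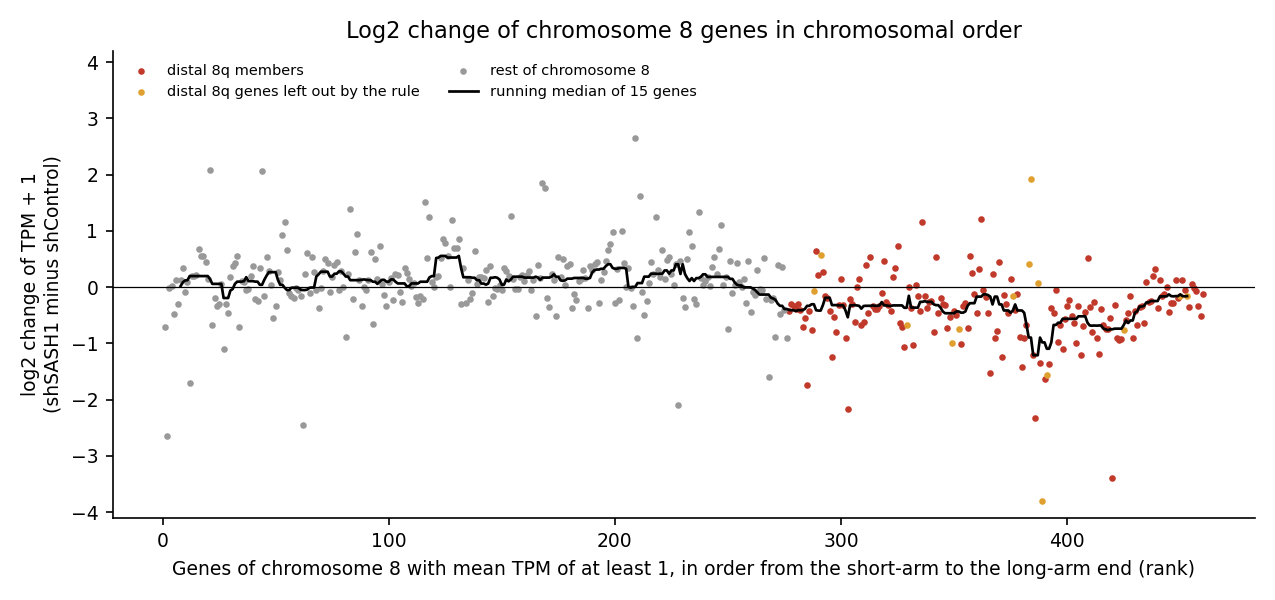
Log2 change of TPM + 1 (vertical axis, shSASH1 minus shControl) of all tested genes of chromosome 8 in chromosomal order from the short-arm end (horizontal axis, rank). Red points are the 170 members, orange points the 14 genes left out by name and grey points the other genes. The black line is a running median of 15 genes. It dips below 0 in places on the short arm, falls below 0 before the first member and rises again over the last members.

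Of the 10 lowest coding members, 3 lay among the LY6 and uPAR family genes. SLURP1 (142740944 to 142742411), a small secreted protein of stratified epithelia, had 6.36 and 10.9 TPM in the shSASH1 libraries, against 47.6 and 43.9 TPM in the shControl libraries (log2 change -2.32 ± 0.24, SE). LYNX1 (142771197 to 142777810), a membrane-anchored modulator of nicotinic receptors, had 35.7 and 40.4 TPM, against 97.2 and 99.3 TPM in shControl (-1.35 ± 0.08). THEM6 (142727203 to 142736927), their neighbour, had 49.8 and 42.3 TPM, against 106 and 109 TPM in shControl (-1.21 ± 0.10). The groups lay far apart in all 3 genes. LY6E-DT (-1.64) and LINC02904 (-1.37), noncoding genes beside LY6E, were called lower as well. The family genes that the rule leaves out did not move together: LY6D (-3.80) and LY6E (-1.56) were called lower, LY6K (1.92) was called higher, and PSCA (0.40) and LYPD2 (0.07) were not called. LYPD2 differed widely between the shSASH1 libraries. Reads of related family members may be shared, which makes single values uncertain.

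Of the other genes left out, the respiratory chain genes NDUFB9 (-0.99) and CYC1 (-0.76), the mitochondrial ribosomal protein gene MRPL13 (-0.68) and the sterol synthesis gene SQLE (-0.75) were called lower. RRM2B (-0.08), PTK2 (-0.16), ARHGAP39 (-0.16), RPL8 (-0.16) and KLF10 (0.57) were not called.

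Of 5 members listed under translation, 4 were called lower, with a median of -0.41, where 13.3% of all genes tested were called lower. Nothing is read from this or the following list counts, since the stretch was chosen on this contrast. PABPC1 (100685816 to 100722809), which binds the poly(A) tail, was the most abundant member, at 1766 and 1825 TPM in shSASH1, against 2401 and 2373 TPM in shControl (-0.41 ± 0.07). EIF3E and EIF3H encode subunits of initiation factor eIF3. EIF3E had 126 and 121 TPM in shSASH1 and 188 and 194 TPM in shControl (-0.62 ± 0.06). EIF3H had 91.6 and 96.5 TPM in shSASH1 and 119 and 118 TPM in shControl (-0.33 ± 0.06). EEF1D (143579697 to 143599541), an exchange factor subunit of elongation factor eEF1, had 25.1 and 24.0 TPM, against 50.8 and 49.5 TPM in shControl (a ratio of means of 0.49). AZIN1, which raises polyamine synthesis by binding antizyme, was at 267 and 268 TPM in shSASH1, below the 303 and 296 TPM of shControl, and was not called (-0.16 ± 0.05). PABPC1 lost its call after quantile normalization, at -0.26. PABPC1 and YWHAZ have processed copies elsewhere in the genome with which reads can be shared.

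Of 6 genes listed under the transcription machinery, 5 were called lower, with a median of -0.50 and values from -0.67 to -0.11. The list also holds the zinc finger gene ZNF706 (-0.55), which is among those calls. POLR2K, a small subunit shared by the nuclear RNA polymerases, was at 199.8 and 210.2 TPM in shSASH1, against 244 and 259 TPM in shControl (-0.29 ± 0.06). TAF2, a subunit of the promoter-binding complex TFIID, had 20.4 and 20.7 TPM, against 32.8 and 32.0 TPM in shControl (-0.63 ± 0.07). ENY2, shared by the SAGA and mRNA export complexes, had a log2 change of -0.67. MAF1, a repressor of RNA polymerase III, was at 106 TPM in both shSASH1 libraries, against 146 and 144 TPM in shControl (-0.45). MED30 of Mediator, at 21.4 and 19.6 TPM in shSASH1 and 21.2 and 23.3 TPM in shControl, overlapped between groups.

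Among genes of cohesin, replication and repair, 5 of 7 were called lower, with a median of -0.33. RAD21, the cleavable subunit of the cohesin ring, had 146 and 149 TPM in shSASH1, against 190.4 and 194 TPM in shControl (-0.38 ± 0.05). DSCC1, part of the clamp loader that works with cohesion, had 39.3 and 35.8 TPM, against 63.7 and 59.7 TPM in shControl (-0.70 ± 0.08). NSMCE2 (-0.33), CHRAC1 (-0.46) and the helicase gene RECQL4 (-0.28) were called lower too. RECQL4 was at -0.11 and not called after the length and GC correction. The exceptions were MTBP, with a log2 change of 0.00 rounded and overlapping groups, and TONSL, at 36.2 and 40.7 TPM in shSASH1 and 35.9 and 34.3 TPM in shControl.

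RNA processing and ribosome assembly genes were split. Of 9 members, 4 were called lower, with a median of -0.39. The 4 called genes lay between 143 and 145 Mb. UTP23, which takes part in small ribosomal subunit assembly, lay near 117 Mb, had the list's median value and was not called, with both shSASH1 values below both shControl values. PUF60, a splicing factor, had 72.2 and 66.0 TPM in shSASH1, against 106 and 117 TPM in shControl (-0.68 ± 0.08). BOP1, needed to build the large ribosomal subunit, had 71.8 and 73.7 TPM, against 116 and 117 TPM in shControl (-0.68 ± 0.06). EXOSC4 of the RNA exosome (-0.94) and HGH1 (-0.90) were the other ones. CPSF1 encodes a subunit of the complex that recognises the polyadenylation signal. It was at 55.2 and 62.3 TPM in shSASH1 and 50.8 and 50.9 TPM in shControl (0.20 ± 0.08). AGO2 (0.15), DCAF13 (0.15) and NUDCD1 (0.14) were likewise above 0, and none of the 4 was called.

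The list of transcription factor and chromatin genes, which also holds SAMD12 (-0.27), had 5 of 12 called lower, with a median of -0.34. GRHL2, a factor that maintains epithelial identity, had 57.9 and 60.3 TPM in shSASH1, against 82.5 and 77.3 TPM in shControl (-0.43 ± 0.07). TRPS1, a GATA-type repressor expressed in breast epithelium, had 33.1 and 27.4 TPM, against 41.9 and 42.3 TPM in shControl (-0.47 ± 0.11). The heat shock factor HSF1 had 49.0 and 48.8 TPM, against 62.7 and 61.2 TPM in shControl (-0.33 ± 0.06). In these 3 genes both shSASH1 values lay below both shControl values, and HSF1 was at -0.20 and not called after the length and GC correction. PHF20L1 (-0.79) and JRK (-0.67) were the other lower calls. MYC (127735434 to 127741434), the growth-promoting transcription factor of the segment, was above its controls: it had 124 and 112 TPM in shSASH1, against 96.5 and 100.4 TPM in shControl (0.26 ± 0.07), and was not called. Its noncoding neighbour CASC8 had 15.2 and 12.1 TPM in shSASH1, against 9.61 and 8.21 TPM in shControl (0.56 ± 0.16). PVT1, the noncoding gene next to MYC on the telomere side, had 4.23 and 4.41 TPM in shSASH1 and 4.80 and 4.84 TPM in shControl (-0.13 ± 0.14). Neither was called.

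The list of ubiquitin, quality control and sorting genes had 8 of 16 called lower, with a median of -0.38. YWHAZ (100916525 to 100953388), a 14-3-3 adaptor that binds phosphorylated proteins, was at 503 and 462 TPM in shSASH1, against 784 and 789 TPM in shControl (-0.70 ± 0.07). WASHC5, a subunit of the WASH complex on endosomes, had 15.1 and 14.1 TPM, against 29.1 and 31.9 TPM in shControl (-1.01 ± 0.09). GPAA1, part of the enzyme that attaches GPI anchors, had 90.7 and 83.7 TPM, against 161 and 169 TPM in shControl (-0.92 ± 0.07). The groups stood well apart in each. The ubiquitin ligases RNF139 (-0.73) and RNF19A (-0.39) and SHARPIN (-0.59), a subunit of the linear ubiquitin ligase, were called lower. The muscle atrophy ligase gene FBXO32 differed between the shSASH1 libraries, at 10.2 and 5.40 TPM, against 13.9 and 13.4 TPM in shControl.

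Adhesion, polarity and cytoskeleton genes moved in both directions. Of 18 members, 9 were called lower and 1 higher, with a median of -0.45 and an interquartile range of 0.90. PTP4A3 (141391993 to 141432454), a membrane-bound phosphatase linked to metastasis, had 5.19 and 6.70 TPM in shSASH1, against 17.7 and 17.1 TPM in shControl (-1.41 ± 0.15). PLEC, the large linker of intermediate filaments, had 177 and 174 TPM, against 256 and 257 TPM in shControl (-0.55 ± 0.05). SCRIB, a basolateral polarity scaffold, had 103 and 99.5 TPM, against 131 and 133 TPM in shControl (-0.38 ± 0.06, or -0.24 after the length and GC correction). FAM83H (-0.81), RHPN1 (-0.56), CYRIB (-0.46) and EFR3A (-0.91) were lower, as were GRINA (-0.90) and the transporter gene SLC45A4 (-0.89), which the list also holds. The member called higher was FAM83A, an adaptor of EGFR and RAS signalling, at 2.63 and 4.50 TPM in shSASH1, against 1.03 and 0.968 TPM in shControl (1.16 ± 0.27), a call lost when no filter on level was used. MAL2, a transcytosis protein of polarised epithelia, was at 206 and 214 TPM in shSASH1, above the 189 and 181 TPM of shControl, and was not called (0.18 ± 0.06). SYBU (0.39), NDRG1 (0.45) and the Arf regulator ASAP1 (0.24) also stood above their controls in both libraries without a call.

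Metabolic and transport genes held several of the lowest coding members. Of 16, 7 were called lower, with a median of -0.43. ST3GAL1 (133454848 to 133571940), a sialyltransferase that caps O-glycans, had 43.5 and 41.9 TPM in shSASH1, against 103 and 101 TPM in shControl (-1.24 ± 0.06). PYCR3 (143603913 to 143609773), of proline synthesis, had 6.60 and 6.10 TPM, against 14.8 and 17.4 TPM in shControl (-1.21 ± 0.13). DEPTOR (119873717 to 120050913), an inhibitor of the mTOR kinase, had 4.87 and 4.43 TPM, against 10.5 and 11.3 TPM in shControl (-1.07 ± 0.12). In these 3 the shSASH1 libraries held less than the shControl libraries by a ratio of means of 0.395 to 0.427. The mitochondrial topoisomerase gene TOP1MT (-0.67), the GDP-fucose synthesis gene GFUS (-0.69), the triglyceride synthesis gene DGAT1 (-0.64) and the proton pump gene ATP6V1C1 (-0.42) were called lower. The members above 0, none of them called, were SLC52A2 of riboflavin uptake (0.08), SLC39A4 of zinc uptake (0.33) and EXT1 of heparan sulfate synthesis (0.46).

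Secreted and receptor genes had 4 of 6 called lower, with a median of -0.71. FZD6, a Wnt receptor, had 86.8 and 70.1 TPM in shSASH1, against 140.1 and 134 TPM in shControl (-0.81 ± 0.12). LRP12 had 7.36 and 7.60 TPM, against 15.4 and 14.5 TPM in shControl (-0.91 ± 0.10). EBAG9 (-0.62) and LYNX1 were the other calls. CCN3, a matricellular protein, was at 3.44 and 0.292 TPM in shSASH1 and 0.391 and 0.501 TPM in shControl, so its single high value came from shSASH1 replicate 1. Without that library its log2 change was -0.16, against 0.73 with it.

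The list of zinc finger genes near the telomere, which also holds COMMD5, had 3 of 12 called lower, with a median of -0.34. The median was -0.20 without shSASH1 replicate 1 and -0.21 after the length and GC correction. ZNF696 (143289676 to 143298061) had 9.53 and 8.23 TPM in shSASH1, against 17.3 and 19.8 TPM in shControl (-0.98 ± 0.13). ZNF623 (-0.43) and ZC3H3 (-0.34) were called too, ZC3H3 not after the length and GC correction (-0.18). ZNF7, ZNF34, ZNF250 and COMMD5, all in the last stretch of the chromosome, overlapped between groups, and ZNF251 stood at 0.12. Of the pyroptosis and PARP genes GSDMD (-0.23), GSDMC (-0.17) and PARP10 (-0.33), PARP10 was called lower, but not after the length and GC correction (-0.18). Their median was -0.23, with values of -0.11 without shSASH1 replicate 1 and -0.36 without shSASH1 replicate 2. GSDMC was at 18.8 and 37.1 TPM in shSASH1, on both sides of the 30.2 and 29.6 TPM of shControl.

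**Figure D4:**
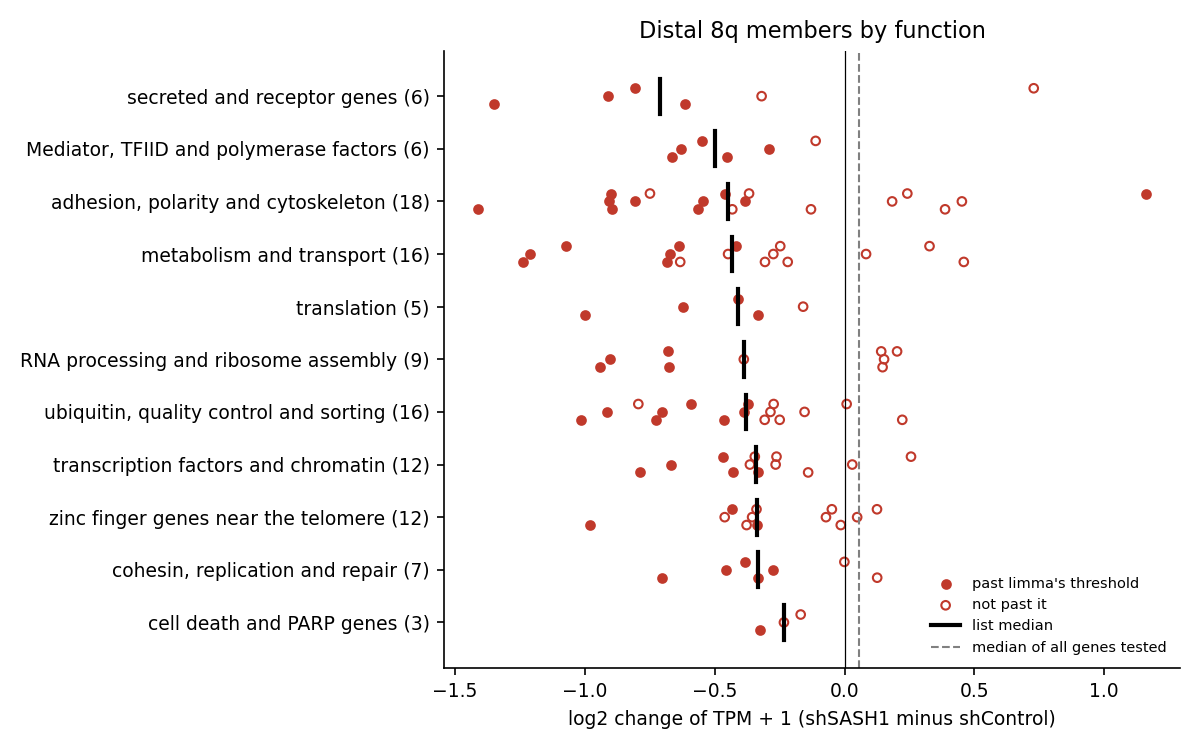
Log2 change of TPM + 1 (horizontal axis, shSASH1 minus shControl) of members grouped by function, with the number of members in parentheses; filled points passed limma's threshold, and black bars are list medians. All 11 medians lie left of the dashed line at the median of all genes tested, and the adhesion list spreads from -1.41 to 1.16. Lists of under 3 members are not drawn, which leaves out the 2 noncoding neighbours of MYC, with a median of 0.21.

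Among coding members whose mean reached 5 TPM in a group, the extremes were unequal in size. Nothing is read from this, since the stretch was chosen for its lower values. The 10 lowest ran from -2.32 (SLURP1) to -0.98 (ZNF696), and all were called. The 5 highest ran from 0.26 (MYC) to 0.46 (EXT1), and limma called none of them, although both shSASH1 values lay above both shControl values in each. EXT1, at 24.6 and 18.0 TPM in shSASH1 and 16.1 and 14.0 TPM in shControl, had the highest log2 change of these and a wide spread in shSASH1.

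**Figure D5:**
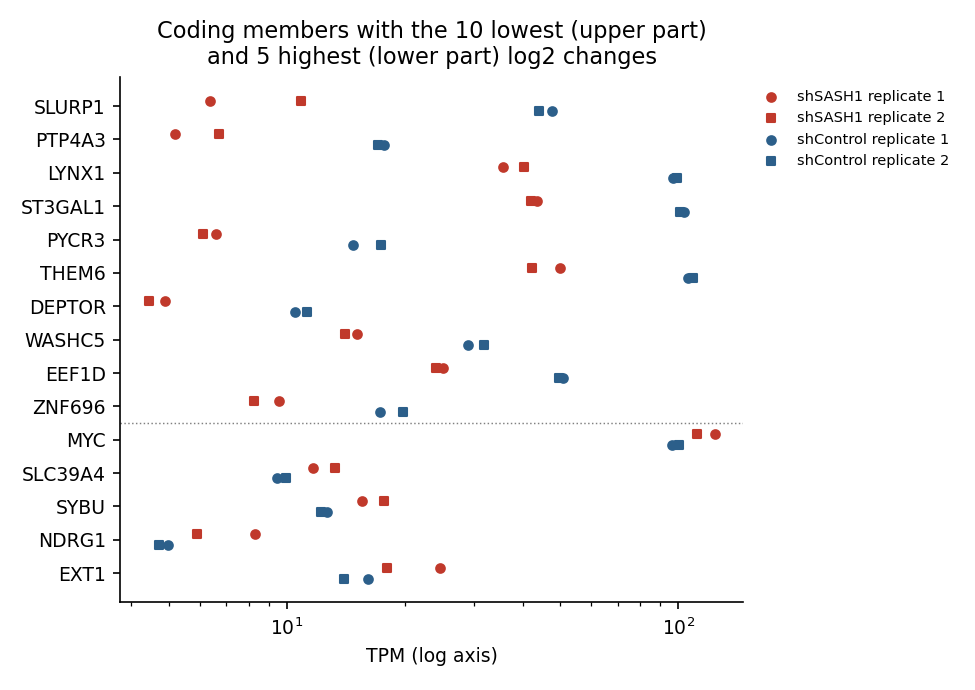
TPM (horizontal log axis) of the 10 coding members with the lowest (upper part) and the 5 with the highest (lower part) log2 change, with 1 point per library. In each of these genes the 2 groups are separated, with gaps that are wide in the upper part and narrow in the lower part.

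The 31 noncoding members had a median log2 change of -0.33 and a wide interquartile range of 1.25, with 8 called lower (25.8%, against 13.3% of all genes tested). They stood at a median of 2.28 TPM, against 25.1 TPM for coding members. ZFPM2-AS1 was listed at 0 in both shSASH1 libraries and at 3.90 and 3.11 TPM in shControl. LINC02845 was listed at 0 in both shSASH1 libraries and at 2.51 and 2.14 TPM in shControl. It rested on 0 rebuilt reads in each shSASH1 library and 6 in each shControl library. ZFPM2-AS1 and LINC02845, both called lower, passed the level minimum only through shControl. Their lower values in shSASH1 are thus built into their membership. The 9 microRNA hairpin rows, of 59 to 120 exon bases, rest on 0 to 96 rebuilt reads and do not measure mature microRNAs. Of these, MIR661, inside the PLEC gene, was called lower, at 0 and 2.15 TPM in shSASH1 and 21.1 and 14.7 TPM in shControl. In all, 74 members have a span, introns included, that overlaps another coding or tested gene. Where exons overlap, reads of such pairs cannot be told apart here, since the use of strand is not given. Overlap of exons was not measured.

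Divided by level, GC content or exon length into 3 classes each, the members had medians below 0 in every class. In the 57 most abundant members, at 32.5 TPM or more, the median was -0.45 and 39 were called lower (68.4%). In the 57 least abundant, up to 9.79 TPM, the median was -0.33, with 9 called lower (15.8%) and 1 higher. Over all genes tested, at every level from 1 TPM up, 13.3% were called lower. Shares of all genes within the same level classes were not taken, so nothing is read from the difference between these classes. By GC content the medians were -0.38 in the lowest 57 members, -0.24 in the middle 56 and -0.45 in the highest 57. Genes outside the region with GC content in those lowest and highest ranges had medians of 0.11 (4599 genes) and -0.02 (3048 genes). By exon length the medians ran from -0.41 to -0.33.

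The difference between the replicates of a group, which did not choose the stretch, showed no offset of the members from other genes. Replicate 2 minus replicate 1 had a median of 0.05 in shSASH1 over the members and 0.05 over all genes tested, and of -0.01 in shControl in both sets. In size the median replicate difference was 0.16 log2 units in shSASH1 and 0.07 in shControl for the members. Over all genes it was 0.18 in shSASH1 and 0.07 in shControl. With 1 library against 1, no test was possible.

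Just inside the level threshold lay CCN3 (mean 1.16 TPM), MIR1208 (1.11 TPM), KLHL38 (1.10 TPM), MIR1207 (1.10 TPM) and an antisense gene (1.08 TPM). Just below it were LINC02912 (0.962 TPM), the mitochondrial folate carrier gene SLC25A32 (0.962 TPM), FLJ42969 (0.885 TPM), TNFRSF11B (0.850 TPM) and MAFA (0.747 TPM). Of the 143 genes below the threshold, 55 were listed at 0 in all 4 libraries.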

How the data were processed

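RNA-seq libraries of MDA-MB-468 cells were grouped by their titles into 2 shSASH1 and 2 shControl libraries. Deposited by the authors was 1 TPM value per Ensembl gene and library (26518 genes, summing to 910830 to 926711 per library). The submitters' processing notes name STAR, DESeq2 and hg38, with neither role nor version. For the read counter, annotation, gene lengths and strand setting, the sources used here give nothing. All identifiers were found in GENCODE release 29. TPM keeps no depth, so reads were rebuilt from TPM times exon-union length. Of values of up to 20 reads, 88.7% to 89.3% came within 0.05 of a whole number, and the totals are estimates. Compared by chi-square on rebuilt reads, replicates differed beyond counting noise (25.8 per degree of freedom in shSASH1, 2.26 in shControl), so each library was kept.

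Genes averaging 1 TPM or more were tested on log2(TPM + 1) values, two-sided, by limma 3.58.1 (R 4.3.3, variance trend). Benjamini-Hochberg adjustment covered all 14458 genes. The test was checked on simulated data that gave both groups the same spread. In these libraries the shSASH1 replicates differed more than the shControl replicates, a case that the check does not cover. With 2 libraries a group, the smallest exact permutation p is 0.333. The region, its members and the function lists were chosen with earlier results of these data known. Named members were the 10 lowest and 10 highest coding log2 changes at a group mean of at least 5 TPM, the 5 most abundant members, and list members. The result of 1 of these genes is not reported here. LY6E-DT, LINC02904, MIR661, ZFPM2-AS1, LINC02845, FBXO43, SPAG1, ZNF252P, C8orf33 and the genes at a boundary of the rule were named after their values were seen. The lists held 112 members, and 58 were in none. Figures used Python 3.11.15 and matplotlib 3.10.9.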

Additional observations from a re-analysis of the deposited data

How the results depend on the processing

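Over the settings tried, no called member that the text names changed direction, and the members' median minus that of all genes tested stayed between -0.47 and -0.39. Settings changed the scaling (quantile normalization, median-of-ratios, or a length and GC correction), the pseudocount (0.1), the level filter (none, or 5 TPM), the variance trend (none), the replicate block, or the libraries (each left out in turn). Members called lower numbered 62 to 82 where all libraries were kept and 0 to 94 with a library left out. Members called higher numbered 0 with no filter (8 at an unadjusted p under 0.05 in limma), 2 with the filter at 5 TPM, without the variance trend or with the replicate block, 3 with the length and GC correction, and 0 to 14 with a library left out. Over all genes, 0 to 3185 were called lower and 0 to 4543 higher with a library left out. With a log2 change of at least 1 in size as well, 16 members and 554 genes in all were called lower, and 734 genes higher.

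The share of higher calls over all genes was 58.6%, but 48.4% after quantile normalization (2280 higher, 2434 lower). The median log2 change of the members was -0.41 with a pseudocount of 0.1, -0.42 with median-of-ratios scaling, -0.44 with quantile normalization and -0.39 to -0.34 with a library left out. It was -0.36 without the 9 rows under 300 exon bases, an alternative chosen after seeing the data, and -0.37 without the noncoding members.
With a pseudocount of 0.1 the medians were -0.42 at 100 to 110 Mb, -0.51 for adhesion and -0.49 for metabolism. With the filter at 5 TPM they were -0.36 at 110 to 120 Mb, -0.50 for adhesion, -0.36 for metabolism and -0.86 for secreted and receptor genes. With median-of-ratios scaling they were -0.45, -0.39 and -0.49 at 100 to 110 Mb, 110 to 120 Mb and 140 Mb to the end, then -0.40 for transcription factors, -0.56 for Mediator and polymerase factors, -0.39 for cohesin, -0.47 for translation, -0.44 for RNA processing, -0.50 for adhesion, -0.49 for metabolism and -0.39 for zinc fingers. With quantile normalization the same 3 sub-intervals were at -0.43, -0.43 and -0.51, and the lists at -0.44 for transcription factors, -0.60 for Mediator and polymerase factors, -0.43 for cohesin, -0.45 for RNA processing, -0.48 for ubiquitin, -0.53 for adhesion, -0.51 for metabolism, -0.81 for secreted and receptor genes and -0.40 for zinc fingers. With the length and GC correction the sub-intervals were at -0.44, -0.40 and -0.31, and the lists at -0.37 for transcription factors, -0.37 for cohesin, -0.46 for RNA processing, -0.38 for metabolism and -0.21 for zinc fingers.
With a library left out, medians ranged from -0.43 to -0.37 at 100 to 110 Mb, -0.33 to -0.30 at 110 to 120 Mb, -0.39 to -0.21 at 120 to 130 Mb, -0.56 to -0.21 at 130 to 140 Mb and -0.46 to -0.40 from 140 Mb. For the lists they ranged from -0.36 to -0.29 for transcription factors, -0.52 to -0.48 for Mediator and polymerase factors, -0.36 to -0.31 for cohesin, -0.43 to -0.39 for translation, -0.45 to -0.32 for RNA processing, -0.40 to -0.31 for ubiquitin, -0.50 to -0.38 for adhesion, -0.51 to -0.39 for metabolism, -0.79 to -0.60 for secreted and receptor genes, -0.33 to -0.20 for zinc fingers and -0.36 to -0.11 for cell death genes. The causes were not tested.

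With a library left out, the lone library of its group is assumed to vary like the other group. Deviations of same-numbered libraries from their group means had a correlation of -0.03 over genes, and the labels name no shared batch, so the numbers are not taken as pairs. With the replicate block 62 members were called lower, 60 of them among the 72 called without it.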
